A study of Mus musculus with 4 samples.

Results

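Small nucleolar RNAs (snoRNAs) and small Cajal body RNAs (scaRNAs) were compared between isolated mitochondria and remaining tissue of mouse skeletal muscle. The members were all genes that carry the Ensembl biotype snoRNA or scaRNA in the deposited table, which gave 136 genes of 16472, of which 122 were annotated as snoRNA and 14 as scaRNA. RNA came from wild-type (WT) animals, with 2 libraries of isolated mitochondria and 2 libraries of a comparison group, termed remaining tissue throughout. Its treatment label describes muscle freed of mitochondria, whereas its sample titles speak of total and the paper names lysates of total muscle. Which description holds could not be settled, so this group may be whole muscle. No agent or mutation was used in either group, and the ages of the animals and whether the libraries came from separate animals were not given. Mitochondria were collected by lysis and differential centrifugation, and the isolation described by the study for heart adds digitonin and RNase A before RNA is extracted, which are meant to remove RNA outside of intact organelles.

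SnoRNAs work in the nucleolus as guides. Box C/D snoRNAs (symbols Snord) carry a C box (TGATGA in the gene) near the 5′ end and a D box (CTGA) near the 3′ end, and direct the methyltransferase fibrillarin to riboses of ribosomal RNA. Box H/ACA snoRNAs (symbols Snora) end in an ACA triplet shortly before the 3′ end and direct the pseudouridine synthase dyskerin. ScaRNAs have one or both kinds of box and guide the same modifications on spliceosomal RNAs in Cajal bodies, which lie in the nucleus. Most of these RNAs are cut out of introns of host genes, a few have promoters of their own, and all are known mainly as nuclear RNAs.

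By symbol there were 33 Snord genes, 13 Snora genes, 15 scaRNA genes (the 14 of that biotype plus Scarna9, which carries the biotype snoRNA) and 75 genes whose symbol does not tell the class. The annotated spans ran from 64 to 414 nt with a median of 130 nt. In the sequences of the GENCODE M21 transcripts, which have the coordinates of the table for all 136 genes, TGATGA in the first 25 bases together with CTGA in the last 25 bases of the annotated strand was found in 40 members (29.4%), against 20.3% of the 1558 snoRNA and scaRNA genes of that annotation. An ACA in the last 8 bases was found in 74 members (54.4%), against 47.6% of all such genes, 4 members had both patterns and 26 had neither. Such a match describes the letters only. An ACA was found in that window in all 13 Snora genes, and the C and D letters in 20 of the 33 Snord genes without an ACA. Of the 75 genes with other symbols, 47 had only the ACA and 11 only the C and D letters.

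The members with the highest levels are shown first, since they have the most reads behind their values. Snord17 (chr2:144265979-144266216, minus strand, inside Snx5), Snord15a (chr7:99482785-99482932, minus, inside Rps3) and Gm25835 (chr11:69668852-69668995, minus, inside Eif4a1) have the box C/D layout, with the C box letters TGATGA and the D box letters CTGA in capitals (all positions are on GRCm38, and none of the members printed here overlaps an annotated exon of its host).
Snord17: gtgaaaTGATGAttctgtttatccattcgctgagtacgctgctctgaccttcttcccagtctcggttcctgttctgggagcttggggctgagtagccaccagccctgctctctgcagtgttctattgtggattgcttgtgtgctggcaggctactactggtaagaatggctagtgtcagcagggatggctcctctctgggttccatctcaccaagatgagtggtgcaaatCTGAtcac
Snord15a: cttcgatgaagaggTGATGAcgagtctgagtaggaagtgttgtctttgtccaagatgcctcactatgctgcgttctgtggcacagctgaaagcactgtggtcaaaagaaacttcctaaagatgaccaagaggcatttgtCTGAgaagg
Gm25835: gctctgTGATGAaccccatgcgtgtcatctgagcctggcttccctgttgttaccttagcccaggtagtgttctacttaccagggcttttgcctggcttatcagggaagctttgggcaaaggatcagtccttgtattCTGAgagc

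Snora23 (chr7:110046364-110046547, plus strand, inside Ipo7), Snora21 (chr11:97781639-97781775, minus, inside Rpl23) and Gm25291 (chr11:51737779-51737922, minus, inside Sec24a) end in the ACA of the other class, in capitals here.
Snora23: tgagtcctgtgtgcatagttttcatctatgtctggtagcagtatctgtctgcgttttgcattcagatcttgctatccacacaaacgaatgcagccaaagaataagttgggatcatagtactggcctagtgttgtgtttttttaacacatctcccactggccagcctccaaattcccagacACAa
Snora21: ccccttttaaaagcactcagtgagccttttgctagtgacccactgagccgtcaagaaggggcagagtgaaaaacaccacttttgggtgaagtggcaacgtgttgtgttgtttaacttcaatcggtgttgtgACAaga
Gm25291: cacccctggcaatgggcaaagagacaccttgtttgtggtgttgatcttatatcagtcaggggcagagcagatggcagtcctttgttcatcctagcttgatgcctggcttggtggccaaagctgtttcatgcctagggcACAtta

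The members were a very small part of the isolated mitochondria. Values are normalized counts, that is reads per gene divided by the authors' size factor of each library and rounded. The tables' steps show that 1 read was worth 9.05 normalized counts in isolated mitochondria replicate 1 and 5.06 in replicate 2, while in remaining tissue about 7.05 reads made 1 normalized count. Mitochondrially encoded genes held 95.28% and 94.11% of the 42750209 and 35304721 reads of isolated mitochondria, and 22.31% and 20.53% of the estimated 15702591 and 15300466 reads of remaining tissue. All members together had 312 reads in isolated mitochondria replicate 1 and 126 in replicate 2, and an estimated 15050 and 15625 in remaining tissue. In isolated mitochondria 73 members in replicate 1 and 43 in replicate 2 were above 0, 35 were above 0 in both and 55 in neither, while 134 and 136 were above 0 in remaining tissue. At most 3 reads in either library of isolated mitochondria were counted for 110 of the 136 members, so that levels of single members there are coarse. A count of 0 allows up to 3 reads.

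Summed over all members, the libraries of isolated mitochondria lay on either side of the remaining tissue. The sum was 2137 and 2218 normalized counts in remaining tissue (mean 2178 ± 57.3, SD, n = 2), 2818 in isolated mitochondria replicate 1 and 633 in replicate 2 (mean 1726 ± 1545, SD, n = 2). The groups overlapped, and the log2 ratio of the means was −0.34. Without replicate 2 of isolated mitochondria it was 0.37, and without replicate 1 it was −1.78. With 2 libraries against 2, the smallest p that an exact two-sided permutation test can give is 0.333, so that sums were not tested. Scaling to the nuclear protein-coding genes in place of the deposited size factors turned the ratio to 0.75. That scale raises most genes, with a median log2 fold change of 0.59 over all genes tested.

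The classes gave the same picture as the whole. Snord genes summed to 470 and 514 normalized counts in remaining tissue, against 597 and 151 in isolated mitochondria (log2 ratio of means −0.40). For Snora genes the sums were 369 and 375 in remaining tissue, and 479 and 166 in isolated mitochondria (−0.21). ScaRNA genes reached 218 and 213 in remaining tissue, and 306 and 80 in isolated mitochondria (−0.16). In each class replicate 1 was above and replicate 2 was below both libraries of remaining tissue. Each of the ratios was positive when scaled to nuclear protein-coding genes (0.69 for Snord, 0.87 for Snora and 0.92 for scaRNA genes). On that scale the median log2 fold change of all genes tested was also positive, at 0.59. The 75 genes with other symbols followed with 1080 and 1116 against 1436 and 236.

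**Figure D1:**
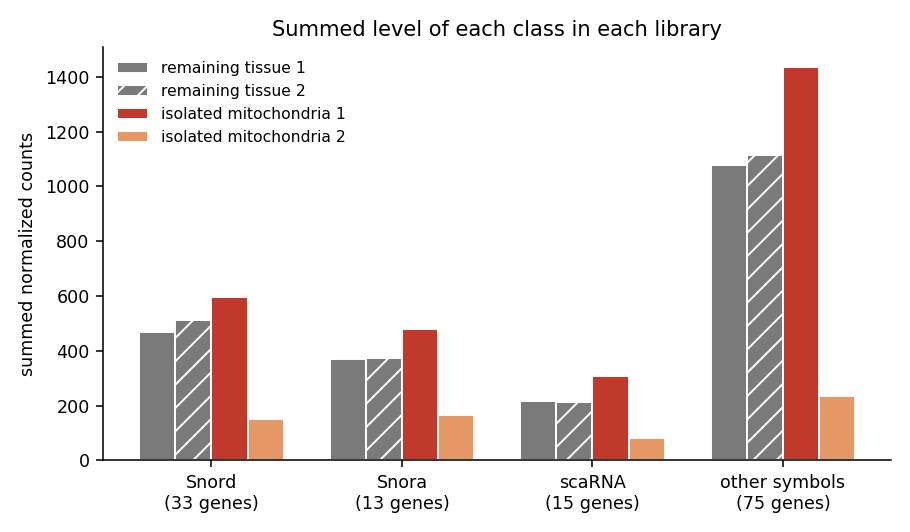
Bars show the summed normalized counts of each class (vertical axis, from 0) in each of the 4 libraries, with the number of genes under each class. In every class the bar of isolated mitochondria replicate 1 is the highest and that of replicate 2 the lowest, for example 597 and 151 for Snord genes against 470 and 514 in remaining tissue.

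The shares of the classes within the members' reads moved less than the sum. Snord genes took 22.0% and 23.2% of the member reads in remaining tissue and 21.2% and 23.8% in isolated mitochondria. Snora genes took 17.3% and 16.9% against 17.0% and 26.2%, and scaRNA genes 10.2% and 9.6% against 10.9% and 12.7%. Members shorter than 100 nt (46 genes) took 14.4% and 15.8% of the member reads in remaining tissue, 14.1% in isolated mitochondria replicate 1 and 7.1% in replicate 2, where this share rests on 9 reads.

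Nuclear protein-coding genes (without symbols of predicted Gm genes) give a denominator that does not hold the mitochondrial transcripts. Per 1000000 reads of these genes, members had 1393 and 1477 reads in remaining tissue, 3980 in isolated mitochondria replicate 1 (exact Poisson 95% interval 3551 to 4447) and 853 in replicate 2 (710 to 1015). The intervals cover counting error only. Replicate 1 was thus above both libraries of remaining tissue and replicate 2 below them on this scale as well, and the distance between the replicates was far beyond their counting error.

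**Figure D2:**
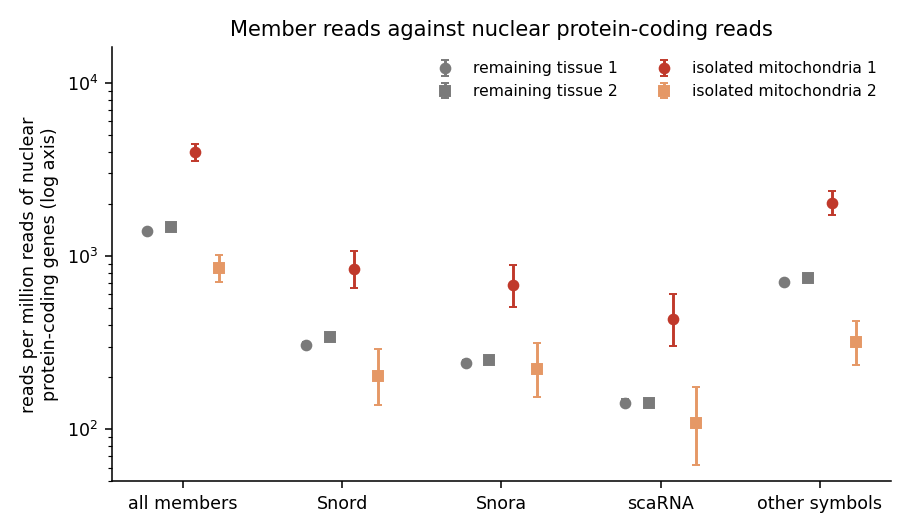
Reads of all members and of each class per 1000000 reads of nuclear protein-coding genes (log axis) in each library, with exact Poisson 95% intervals. For all members isolated mitochondria replicate 1 sits at 3980 and replicate 2 at 853, on either side of remaining tissue at 1393 and 1477.

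Other nuclear RNAs also differed between these replicates, with smaller ratios. The members' sum in replicate 1 of isolated mitochondria was 4.45 times that of replicate 2. The 135 snRNA genes (spliceosomal and related RNAs) summed to 13154 and 4944 normalized counts, a ratio of 2.66, and the nuclear-retained long RNAs Malat1 and Neat1 to 3628 and 1311, a ratio of 2.77. Nuclear protein-coding genes had a ratio of 0.949, and 25 genes of the biotype misc_RNA, which holds cytoplasmic small RNAs as well, had 1.16. Of the 28 members that were tested, 27 (96.4%) were higher in replicate 1 than in replicate 2, against 43.8% of all 6916 genes tested. Whether nuclear material carried over moves with these values was not tested, and more nuclei in a preparation and more snoRNA per nucleus cannot be told apart in bulk libraries.

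Gene by gene, no member passed the test between the groups. limma on log2(normalized count + 1) was run on the 6916 genes whose average over the 4 libraries reached 20, which included 28 members (4 Snord, 4 Snora, 5 scaRNA and 15 with other symbols), so 108 members were too low to be tested. Of the 28, 0 were higher and 0 lower at an adjusted p under 0.05, while 7.32% of all genes tested were called higher and 9.30% lower. At an unadjusted p under 0.05, 0 members were higher and 4 were lower (21.9% of all genes tested were lower at that limit). The median log2 fold change of the 28 was −0.87, against −0.44 for all genes tested, and 24 were negative. Of the 28, 6 were at 0 in isolated mitochondria replicate 2. The median depended on the method and on that library. It was −0.41 with edgeR and −0.20 with DESeq2 (−0.04 and 0.01 for all genes tested). With scaling to nuclear protein-coding genes it was 0.14 (0.59 for all), and without isolated mitochondria replicate 2 it was 0.40 (−0.43 for all). edgeR and DESeq2 on reads each called 1 member lower and 0 higher (12.6% and 12.7% of all genes were called lower). The groups did not overlap in 7 of the 28 members, all lower in isolated mitochondria, against 43.7% of all genes tested, and in 0 that were higher, against 25.5%. In 18 members replicate 1 was above and replicate 2 below both libraries of remaining tissue, a pattern that was not counted over all genes tested.

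Either library of isolated mitochondria decided the outcome for the group. Without replicate 1, 24 of the 28 members were called lower (40.1% of all genes were), and without replicate 2, 10 were called higher and 6 lower (23.8% and 46.2% of all genes). In both cases the lone library was taken to vary like the libraries of the other group. With the summed counts of all genes as the scale, which is mostly mitochondrial RNA in one group, all 28 were lower, as were 6694 of all 6916 genes.

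**Figure D3:**
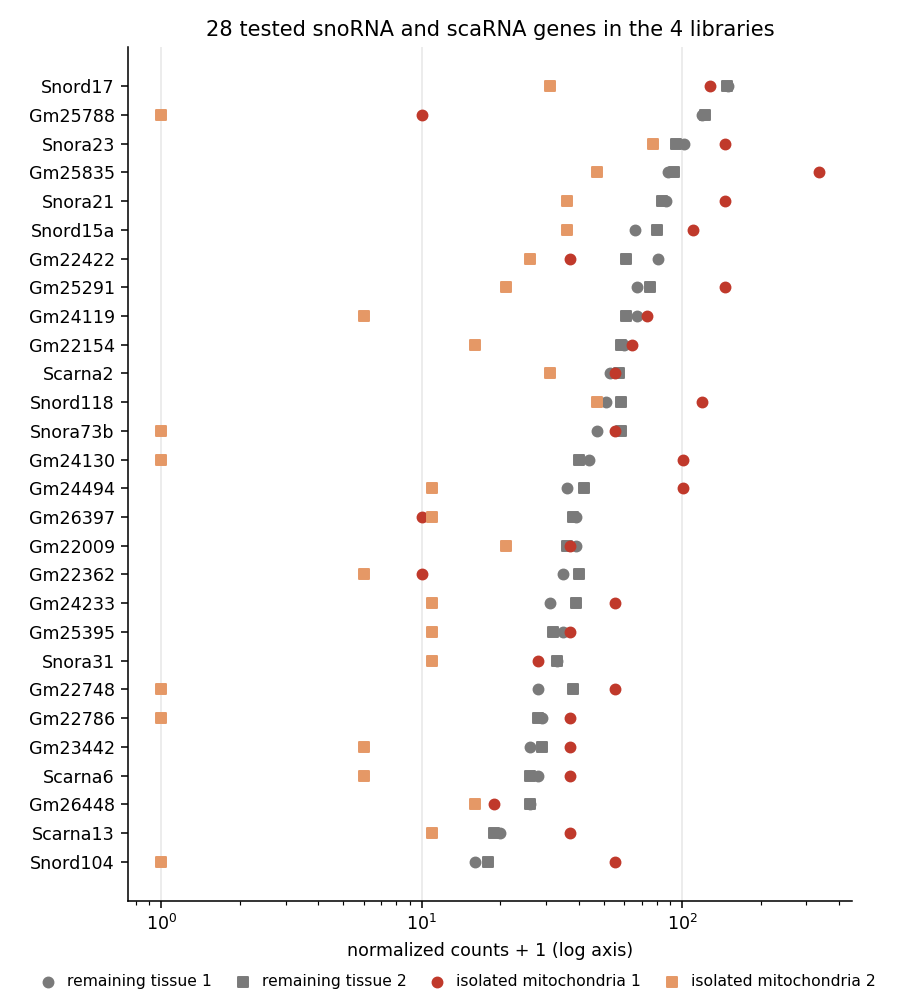
Normalized counts plus 1 (log axis) of the 28 tested members in each of the 4 libraries, ordered by the mean in remaining tissue. Circles are replicate 1 and squares replicate 2, the libraries of remaining tissue (grey) lie close together, and replicate 1 of isolated mitochondria (red) lies to the right of replicate 2 (orange) in 27 of the 28 members, and 7 members, among them Gm25788, Gm22422, Gm26397 and Gm22362, lie to the left of remaining tissue in both.

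Among box C/D members, Snord17 was the highest in remaining tissue with 149 and 147 normalized counts, against 127 and 30 in isolated mitochondria, which rest on 14 and 6 reads. Both libraries of isolated mitochondria lay below remaining tissue (log2 fold change −1.24, SE 0.74, adjusted p = 0.290 in limma). Gm25835, inside the gene of the translation initiation helicase Eif4a1, had 87 and 92 normalized counts in remaining tissue and 335 and 46 in isolated mitochondria. It was the highest member of replicate 1 with 37 reads, 11.9% of the members' sum there, but only 9 reads were counted in replicate 2, and the fold change of 0.47 on the log2 scale had an SE of 1.01 (adjusted p = 0.754 in limma). Snord15a had 65 and 79 in remaining tissue and 109 and 35 in isolated mitochondria, so that the groups overlapped (−0.21, SE 0.61). Gm24494, inside Rabggtb, for which neither symbol nor letters told the class, had 35 and 41 against 100 and 10, the same split between the replicates.

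Snord118, known as U8 RNA, is needed for processing of precursors of large-subunit ribosomal RNA and has a promoter of its own. It had 50 and 57 normalized counts in remaining tissue and 118 and 46 in isolated mitochondria, from 13 and 9 reads (fold change 0.46 on the log2 scale, SE 0.53, adjusted p = 0.551 in limma). The gene lies at chr11:69073427-69073561 (plus strand) in no host gene, and only the D box letters (capitals) are found in the windows searched.
Snord118: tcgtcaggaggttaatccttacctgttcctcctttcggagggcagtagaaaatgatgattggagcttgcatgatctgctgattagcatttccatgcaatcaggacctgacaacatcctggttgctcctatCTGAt

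Snora23 had the highest level of the Snora genes in remaining tissue. It had 101 and 94 normalized counts in remaining tissue and 145 and 76 in isolated mitochondria, from 16 and 15 reads, and it was the highest member of replicate 2 (log2 fold change 0.11, SE 0.38, adjusted p = 0.854 in limma). Snora21 had 86 and 83 against 145 and 35, and Gm25291 had 66 and 74 against 145 and 20. Both overlapped between the groups, with log2 fold changes of −0.24 (SE 0.74) and −0.36 (SE 1.00). Snora73b, which belongs to the U17 RNAs that act early in ribosomal RNA cleavage, had 46 and 57 in remaining tissue, 54 in isolated mitochondria replicate 1 and 0 in replicate 2. Its span lies whole within an exon of the gene Gm17300 on the opposite strand. If strands were not told apart in the counting, reads of either may be counted or lost.

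Gm25788 showed the lowest level in isolated mitochondria relative to remaining tissue among the tested members. It had 118 and 121 normalized counts in remaining tissue, the second highest mean of all members, and 9 and 0 in isolated mitochondria, which are 1 and 0 reads. On the log2 scale this was a change of −5.25 (SE 1.25, adjusted p = 0.0632 in limma), which missed the threshold. edgeR gave −4.95 (adjusted p = 0.00656) and DESeq2 −4.88 (adjusted p = 0.00151), and this was the member that both called lower. Over all alternatives the adjusted p ran from 7.45e-05 with scaling to the library totals to 0.609 without replicate 2 of remaining tissue. At the share of nuclear protein-coding reads that it has in remaining tissue, 6.18 and 11.6 reads would have been counted.

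Gm25788 has a near twin in the same host, Pabpc4 (a cytoplasmic poly(A)-binding protein), that was not low to the same degree. The twin, Gm22154, had 59 and 57 normalized counts in remaining tissue and 63 and 15 in isolated mitochondria, where 7 and 3 reads were counted (a change of −0.88 on the log2 scale, SE 0.74, adjusted p = 0.428 in limma). Gm25788 thus took 66.7% and 68.0% of the pair's normalized counts in remaining tissue and 1 of the pair's 11 reads in isolated mitochondria (9.09%, exact 95% binomial interval 0.23% to 41.3%). Both are 131 nt long and lie on the plus strand, Gm25788 at chr4:123291344-123291474 and Gm22154 at chr4:123293152-123293282. They differ at 4 bases (T28C, T29C, T96C and C131T, from Gm25788 to Gm22154, counted from 1 at the 5′ end), given in capitals.
Gm25788: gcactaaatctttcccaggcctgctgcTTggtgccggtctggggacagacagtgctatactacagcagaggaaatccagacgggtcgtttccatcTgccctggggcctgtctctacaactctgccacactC
Gm22154: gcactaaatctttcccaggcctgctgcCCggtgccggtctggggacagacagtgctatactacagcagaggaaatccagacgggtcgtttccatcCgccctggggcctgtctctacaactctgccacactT
The identity was 96.9% and the longest stretch without a difference was 66 nt. Reads that align to several places were left out by the authors, so a read that lies within a shared stretch counts for neither gene, and a further near copy (Gm24620, inside Kif13a, 97.7% identical to Gm25788) takes part in this as well. The split of reads between these copies is therefore uncertain.

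Another 3 members lay below remaining tissue in both libraries at an unadjusted p under 0.05, and all have the size of H/ACA RNAs. Gm22422, inside Trmt10c (a subunit of mitochondrial RNase P), had 80 and 60 normalized counts in remaining tissue and 36 and 25 in isolated mitochondria (log2 fold change −1.18, SE 0.35, adjusted p = 0.0919 in limma). Gm26397, inside Tomm20 (a receptor for import of proteins into mitochondria), had 38 and 37 against 9 and 10 (−1.88, SE 0.48, adjusted p = 0.0716 in limma). Gm22362, inside Ybx3, had 34 and 39 against 9 and 5 (−2.27, SE 0.64, adjusted p = 0.0856 in limma). In isolated mitochondria these levels rest on 4 and 5 reads, 1 and 2 reads, and 1 and 1 read. Gm22422 (chr16:56035753-56035887, minus strand) and Gm22362 (chr6:131380273-131380406, minus) are related in sequence, with 103 of 135 aligned positions identical (76.3%), while the ACA (capitals) is present in Gm22422 and in Gm26397 (chr8:126944847-126944980, minus) but not in the last 8 bases of Gm22362.
Gm22422: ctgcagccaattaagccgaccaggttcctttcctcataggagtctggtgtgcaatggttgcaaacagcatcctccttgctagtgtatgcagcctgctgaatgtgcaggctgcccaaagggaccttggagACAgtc
Gm22362: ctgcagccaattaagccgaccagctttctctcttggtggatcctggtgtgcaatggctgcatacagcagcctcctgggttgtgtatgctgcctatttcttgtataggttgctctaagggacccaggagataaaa
Gm26397: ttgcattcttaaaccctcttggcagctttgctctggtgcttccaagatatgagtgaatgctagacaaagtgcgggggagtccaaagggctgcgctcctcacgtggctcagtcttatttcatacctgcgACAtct

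**Figure D4:**
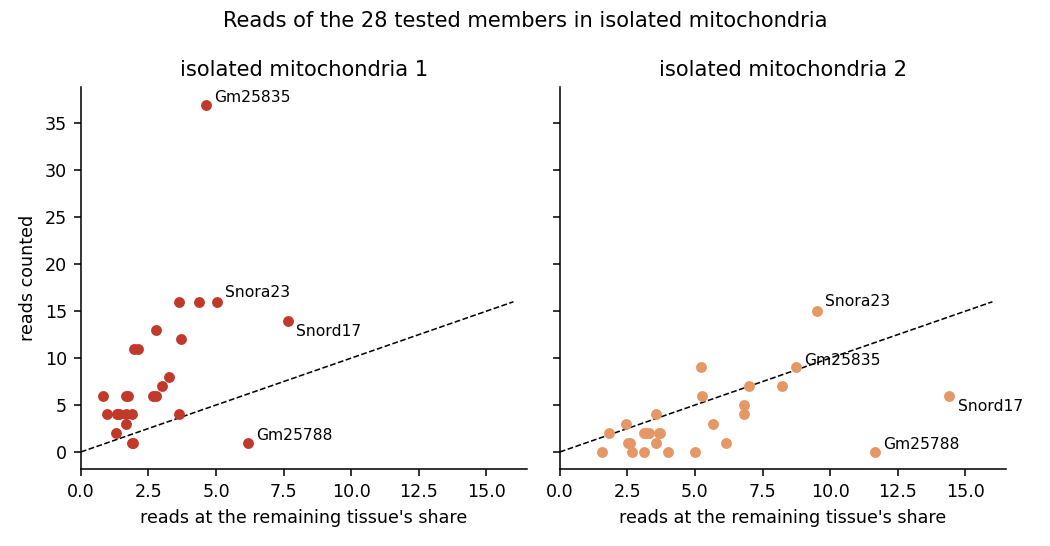
Reads counted for each of the 28 tested members (vertical axis) in the libraries of isolated mitochondria, against the reads expected at its share of nuclear protein-coding reads in remaining tissue (horizontal axis), with the dashed line marking equal numbers. In replicate 1, 25 members lie above the line and in replicate 2, 7 do, while Gm25788 lies below it in both with 1 and 0 reads.

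Few members had enough expected reads to show a deficit. An equal share of nuclear protein-coding reads would give at least 3 reads in both libraries of isolated mitochondria for 9 members and in at least 1 of them for 22. Of the 9, 8 were counted above that number in replicate 1 and 2 in replicate 2, which were Snora23 (16 and 15 reads against 5.04 and 9.50) and Gm25835 (37 and 9 against 4.63 and 8.72). None of the 55 members at 0 in both libraries was among the 28 tested, and the highest of them in remaining tissue was the scaRNA gene Gm22767 with 14 and 15 normalized counts, for which 0.751 and 1.42 reads would have been counted at an equal share. Absence of these RNAs from isolated mitochondria was therefore not detectable at this depth.

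Per length, the 5 members with the highest levels in remaining tissue were the 5 that also led without correction for length, in another order. Gm25788 was first with 912 normalized counts per kb of annotated span, followed by Snord17 (622), Gm25835 (622), Snora21 (617) and Snora23 (530). Snord17, Gm25835 and Snora21 did not differ on this scale beyond the spread between the libraries. In isolated mitochondria the mean per kb was 1323 for Gm25835, 657 for Snora21, 601 for Snora23, 330 for Snord17 and 34.4 for Gm25788, and the SD of these means is large, since replicate 1 of Gm25835 alone had 335 and replicate 2 had 46 normalized counts.

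ScaRNA genes were low in every library. Scarna2, an independently transcribed guide for spliceosomal RNA of 414 nt, had 52 and 56 normalized counts in remaining tissue and 54 and 30 in isolated mitochondria, with 6 reads in each (log2 fold change −0.41, SE 0.39, adjusted p = 0.474 in limma). Gm22009, inside Kpna4, had 38 and 35 against 36 and 20, with 4 reads in each (−0.43, SE 0.42). Gm25395 and Scarna6 lie in the same host, the autophagy gene Atg16l1, and had 34 and 31 against 36 and 10, and 27 and 25 against 36 and 5. Scarna13, inside Snhg10, had 19 and 18 against 36 and 10 (0.05, SE 0.78), and 23.6% of its span lies in the exon of a microRNA gene. In all 5 the groups overlapped, with replicate 2 of isolated mitochondria below remaining tissue and replicate 1 at its level or above.

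The other 10 scaRNA genes were too low to be tested. Gm22767 had 14 and 15 normalized counts in remaining tissue and 0 in both libraries of isolated mitochondria. Scarna17 (6 and 4 against 27 and 0), Gm22442 (4 and 4 against 45 and 0), Gm23751 (4 and 6 against 9 and 0), Scarna8 (4 and 4 against 9 and 0) and Gm24644 (3 and 3 against 9 and 0) were counted in replicate 1 only. Gm25492 had 3 and 6 against 9 and 5, which is 1 read in each library of isolated mitochondria. Gm24289 (5 and 3), Gm23119 (4 and 2) and Scarna9 (1 and 1) were at 0 in isolated mitochondria. In this range 1 read in isolated mitochondria exceeds the level of most of these genes in remaining tissue, so that a higher value carries no information on its own. Terc, the telomerase RNA, was not analysed here.

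Members inside and outside of host genes were summed as well. The 16 members outside of any host gene on their strand summed to 212 and 226 normalized counts in remaining tissue and 416 and 86 in isolated mitochondria, and the 120 members inside host genes to 1925 and 1992 against 2402 and 547. Both sums lay above remaining tissue in replicate 1 and below it in replicate 2. The 120 members lay in 102 different host genes, 93 of them protein-coding, and 24 members lay in 15 ribosomal protein genes.

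The host genes did not all move as their members. The table holds 98 host genes, and 75 were tested, of which 5 were higher and 11 were lower in isolated mitochondria, against 7.32% and 9.30% of all genes tested. Their median log2 fold change was −0.59, against −0.44 for all genes tested. Pabpc4 fell from 314 and 288 normalized counts in remaining tissue to 63 and 66 in isolated mitochondria (log2 fold change −2.20, SE 0.20, adjusted p = 0.0128 in limma), while the change of its member Gm25788 was −5.25 and that of Gm22154 was −0.88. Kpna4 (importin alpha), the host of Gm22009, fell from 271 and 246 to 27 and 46 (−2.84, SE 0.34, adjusted p = 0.0197 in limma), and its member had a log2 fold change of −0.43. Rpl23, a ribosomal protein and the host of Snora21, rose from 99 and 96 to 226 and 243 (1.26, SE 0.20, adjusted p = 0.0293 in limma), and Chd3, the host of Gm22442, rose from 29 and 32 to 127 and 197 (2.34, adjusted p = 0.0235 in limma). The directions of Rpl23 and Chd3 turn when libraries are scaled to their total instead. Without replicate 1 of remaining tissue, Pabpc4, Chd3 and Rpl23 no longer passed (adjusted p = 0.0732, 0.0647 and 0.344 in limma), and Rpl23 did not pass without replicate 2 either (adjusted p = 0.377). Ybx3, the host of Gm22362, fell from 1066 and 1134 to 452 and 592 (−1.09, SE 0.21, adjusted p = 0.0427 in limma), and Prrc2b, which holds Gm25632 and Gm22192, fell from 539 and 521 to 217 and 121 (−1.70, SE 0.34, adjusted p = 0.0451 in limma). Both calls were lost without replicate 1 (adjusted p = 0.256 and 0.0942 in limma) and without replicate 2 of remaining tissue (0.331 and 0.0824), and Ybx3 was at −0.03 and Prrc2b at −0.65 when scaled to nuclear protein-coding genes. Kif13a, the host of Gm24620, was also called lower (267 and 264 against 72 and 96, adjusted p = 0.0259 in limma). Cep295, the host of Scarna9, was called higher (33 and 30 against 244 and 132, adjusted p = 0.0289 in limma). Other tested hosts of the scaRNA genes and of the members with the highest levels did not pass: Ipo7 (199 and 206 against 36 and 86), Fbxo3 (145 and 143 against 36 and 66), Rps3 (155 and 157 against 262 and 304), Eif4a1 (54 and 70 against 72 and 101), Snx5 (69 and 66 against 36 and 101), Sec24a (99 and 113 against 145 and 15), Chd4 (289 and 291 against 127 and 293), Atg16l1 (35 and 34 against 9 and 20), Rabggtb (45 and 50 against 45 and 25) and Ppp1r8 (16 and 14 against 18 and 35). The hosts Bud23, Tipin, Haus6 and Trmt10c were too low to be tested, with at most 17 normalized counts in remaining tissue.

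**Figure D5:**
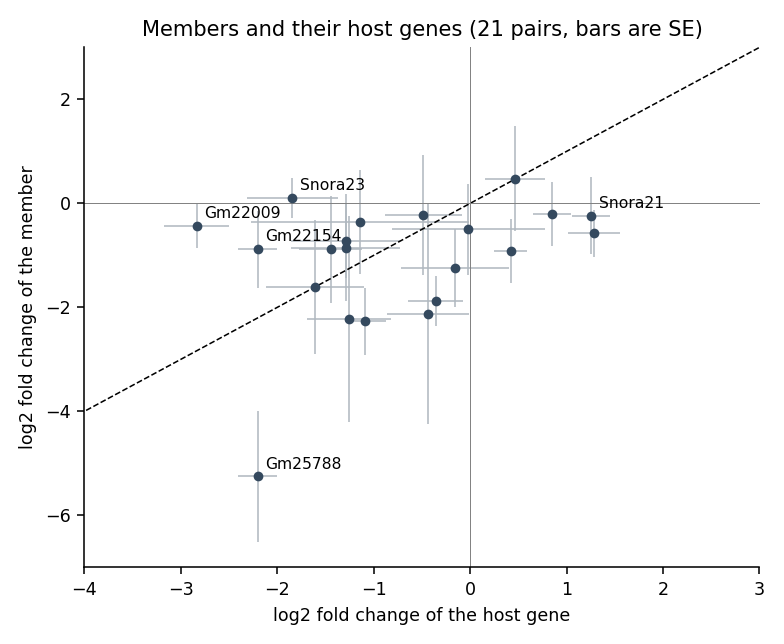
Log2 fold change (isolated mitochondria against remaining tissue) of 21 tested members against that of their tested host genes, with standard errors as bars and the dashed line marking equal changes. In 12 of the 21 the member lies below its host, Gm25788 at −5.25 with its host at −2.20 is the farthest down, and Snora23 and Gm22009 lie near 0 with hosts that are lower.

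Reads in an intronic member can come from the mature RNA or from the intron of its host, and the table does not tell these apart. 11 members overlap an exon of another gene, 7 of them on the same strand, and the strand setting of the counting was not given. A stretch of 50 nt or longer is shared, with an identity of 90% or above, between 59 members and some other gene. An example is Gm25632 and Gm22192, both inside Prrc2b and identical over their 85 nt, which had 6 and 6 against 9 and 5 and 5 and 6 against 18 and 0 normalized counts although reads that align to several places were left out.
Gm25632: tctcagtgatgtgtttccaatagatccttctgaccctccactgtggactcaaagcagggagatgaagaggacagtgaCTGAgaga
Capitals mark the D box letters, and the sequence of Gm22192 is the same. They lie at chr2:32225653-32225737 and chr2:32221970-32222054 on the plus strand.

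Transcripts of the proteins that bind these RNAs were low in all libraries. Among box C/D proteins Fbl, the methyltransferase fibrillarin, had 12 and 8 normalized counts in remaining tissue and 27 and 10 in isolated mitochondria, Nop56 23 and 26 against 18 and 20, Nop58 17 and 20 against 0 and 30, and Snu13 23 and 20 against 45 and 20. Among H/ACA proteins Dkc1, the pseudouridine synthase, had 26 and 23 against 9 and 25, Nop10 18 and 23 against 27 and 15, Nhp2 15 and 15 against 27 and 0, and Gar1 6 and 6 against 9 and 5. Of the 4 proteins of each class 2 were tested and 0 were called in either direction. Lists of assembly factors (3 tested), Cajal body and trafficking proteins (3 tested) and nucleolar proteins (8 tested) had 0 calls as well, with medians of −0.81, −1.27 and −0.58 on the log2 scale, against −0.44 over all genes tested.

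In a list of known snoRNA host genes 14 of 30 were tested, of which Rpl3 and Rpsa were higher and Eif4a2 was lower (7.32% of all genes tested were higher and 9.30% lower). Rpl3 rose from 41 and 43 to 127 and 187 (log2 fold change 1.85, adjusted p = 0.0302 in limma) and Rpsa from 305 and 290 to 588 and 895 (1.28, adjusted p = 0.0489 in limma), both reversed when libraries are scaled to their total, and Eif4a2 fell from 216 and 216 to 81 and 106 (−1.21, adjusted p = 0.0436 in limma). All 3 calls were lost without replicate 1 (adjusted p = 0.179 for Rpl3, 0.159 for Rpsa and 0.465 for Eif4a2 in limma) and without replicate 2 of remaining tissue (0.161, 0.207 and 0.464), and Eif4a2 was at −0.16 when scaled to nuclear protein-coding genes. Of 6 other small structured RNAs that were tested 1 was called, the vault RNA Vaultrc5, a cytoplasmic small RNA. It rose from 716 and 702 to 4307 and 3784 (2.51, SE 0.17, adjusted p = 0.00807 in limma), and this direction turned when libraries were scaled to their total. The nuclear-retained Malat1 had 10127 and 9405 against 3221 and 1174 (−2.33, SE 0.53, adjusted p = 0.0578 in limma), and Neat1 1469 and 975 against 407 and 137 (−2.34, SE 0.60, adjusted p = 0.0735 in limma), and in both the groups did not overlap.

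Markers of other cells in these libraries were as follows. Of the 9 skeletal muscle genes 7 were called lower in isolated mitochondria, against 9.30% of all genes tested. The 9 summed to 286880 and 295732 normalized counts in remaining tissue, against 54457 and 51997 in isolated mitochondria. The liver genes Alb and Apoa1 summed to 203 and 33 in remaining tissue and 8479 and 1826 in isolated mitochondria (0 of 2 called). Macrophage genes summed to 33 and 40 against 289 and 278, and 2 of the 2 tested were called higher. Of 4 listed neuronal genes only Rbfox3 was among the 16472 genes, so that this list rests on 1 gene. Rbfox3 had 0 and 0 against 471 and 648 and was called higher (7.32% of all genes tested were). Endothelial genes (1 of 3 lower) summed to 372 and 364 against 54 and 80, red cell genes to 87 and 91 against 36 and 25, adipocyte genes to 19 and 76 against 45 and 50, and Schwann cell genes to 24 and 16 against 9 and 0. The part of other cell types in the members' levels was not tested.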

How the data were processed

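RNA of isolated mitochondria and of remaining tissue was sequenced from 10 ng of total RNA with a stranded low-input kit, and fragmentation of the mitochondrial samples was adjusted, so that its effect cannot be told apart from that of the groups. According to the methods, the authors trimmed reads, aligned them to GRCm38 with STAR and counted those at least partly in exons with featureCounts, without reads of several genes or places. The submitters' processing notes name Trimmomatic 0.39, STAR 2.7.10a, featureCounts 2.0.2 and DESeq2 1.30.1. The deposited values are a signal, counts that the authors divided by a size factor per library and rounded.

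Values under 2000 were whole multiples of 9.0488 and 5.0592 in isolated mitochondria (100.0% of 10508 and 99.98% of 11660 values, to within rounding), which gave whole reads. Reads of remaining tissue were estimated at 7.05 per normalized count. Groups came from the sample titles. limma 3.58.1 (trended eBayes, Benjamini-Hochberg adjustment) was run in R 4.3.3 on the genes that averaged 20 or more, with a pseudocount of 1 and no covariate, and was checked on simulated data. edgeR 4.0.16 (quasi-likelihood test) and DESeq2 1.42.0 on reads, other scalings, filters and pseudocounts, a replicate block and leaving out each library were alternatives. Fold changes of limma are on the log2(normalized count + 1) scale, which can understate changes of low genes. It can overstate them where 1 library of isolated mitochondria is at 0. With a pseudocount of 5, Gm25788 was at −3.90 in place of −5.25. The median of the 28 tested members was then −0.6 in place of −0.87. P-values measure the spread between libraries, which may be technical. Sequences are from GENCODE M21 (GRCm38), and shared stretches were found with BLAST 2.17.0.

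Members and lists were chosen with earlier results of these data known. Named were all scaRNA genes, the 8 members with the highest mean in either group, their hosts, the core proteins, called genes of the lists, Malat1 and Neat1. Gm22154, Gm24620, Gm26397, Gm22362, Gm25632, Gm22192, Snora73b, Ybx3, Prrc2b, Kif13a, Cep295, Tomm20, Alb, Apoa1 and Rbfox3 were named after their values were seen.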

Additional observations from a re-analysis of the deposited data

How the results depend on the processing

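No member was called higher, and none lower, by limma as reported. The count of members called lower was 46 of 136 with no minimum mean (where 3026 of all 16472 genes were called lower), 1 with a pseudocount of 5, 2 with eBayes without trend, 28 with scaling to the total of all genes, 1 each with edgeR, with DESeq2 and with edgeR with no minimum mean (an alternative chosen after seeing the data), and 0 with a mean of at least 5, with scaling to the upper quartile and with scaling to nuclear protein-coding genes. The cause was not tested. Leaving out 1 library gave 0 to 24 called lower and 0 to 10 called higher; all other alternatives gave 0 higher. Numbers of replicates are shared by the groups but are not said to mark an animal, and differences between replicates correlated by 0.141 over 6916 genes. The fit with a replicate block called 1 member lower (Gm25788), and 1144 of all 6916 genes.

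The median log2 fold change of all genes tested was −0.44 as reported, −6.90 with scaling to the total of all genes and 0.59 with scaling to nuclear protein-coding genes. Under the former the summed ratios were −7.52 for all members, −7.55 for Snord, −7.29 for Snora and −7.31 for scaRNA genes, and these fold changes turned: Scarna13 −6.20, Snora23 −6.65, Gm25835 −6.29, Snord118 −6.24, Chd3 −4.42, Rpl23 −5.57, Rpl3 −4.91, Rpsa −5.59 and Vaultrc5 −4.39. Under the latter these turned: Scarna2 0.63, Gm22009 0.60, Snora21 0.81, Snord15a 0.84, Gm25291 0.68 and Gm22154 0.15. With edgeR and DESeq2, Snora21 turned to 0.10 and 0.37, Snord15a to 0.04 and 0.24, and Gm25291 to 0.17 and 0.53. With edgeR and no minimum mean, Scarna13 was −0.12 and Snora23 −0.13.

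Without 1 library each, fold changes that changed sign ran from −0.83 to 0.00 for Scarna2, −0.83 to 0.92 for Scarna13, −0.35 to 0.57 for Snora23, −0.94 to 1.89 for Gm25835, −1.25 to 0.77 for Snora21, −1.01 to 0.60 for Snord15a, −1.76 to 1.04 for Gm25291, −0.21 to 1.13 for Snord118 and −1.88 to 0.12 for Gm22154. Over the 27 genes whose fold change is printed and all alternatives, 285 values kept direction and call, 51 became called, 37 lost the call and 32 turned. The sums without 1 library ran from −1.78 to 0.37 for all members, −1.70 to 0.28 for Snord, −1.16 to 0.36 for Snora and −1.43 to 0.51 for scaRNA genes. Depth limits single members, most of which had at most 3 reads in isolated mitochondria.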
